A study of Caenorhabditis elegans with 6 samples.

Results

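The cest genes of C. elegans encode proteins with a carboxylesterase domain, and they were taken here as all genes whose current symbol begins with cest-. The gene table of the organism holds 34 of them, of which 29 have a named probe among the 22321 features measured, namely 7477 named genes and 14844 unnamed probes. The other 5, cest-13, cest-16, cest-24, cest-25 and cest-27, were not analysed here. The members cest-15 and cest-29 are annotated as pseudogenes. RNA was measured in GFP-positive touch receptor cells, the neurons that sense light touch, which were sorted from primary cultures of embryonic cells. The cells labelled 128Q expressed mutant Huntingtin, those labelled 19Q expressed normal Huntingtin, and those labelled GFP only carried no Huntingtin. All 3 kinds expressed GFP from the mec-3 promoter, to which the Huntingtin fragments, N-terminal pieces fused to GFP, were also coupled. The integrated strains were compared on 2-colour arrays, 128Q against 19Q on 3 of them and 19Q against GFP only on 3 others, each described as a biological replicate.

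Carboxylesterases are serine hydrolases of the alpha/beta-hydrolase fold, which cut ester bonds in lipids, drugs and hormones. In C. elegans, members of this family are also known to join building blocks rather than to split them. The genes cest-1.1, cest-2.2, cest-3, cest-8 and cest-9.2 take part in attaching side groups to ascarosides, the pheromones of the worm, and cest-4 takes part in the assembly of modular glucosides. These roles were worked out mainly for the intestine, where the enzymes lie in lysosome-related granules. The roles of the remaining members are not stated here.

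The deposited values are log ratios with no stated log base, so they are given as log ratios in deposited units and never as folds. Values above 0 mean more signal from whichever cells come first in the name of the comparison. Each array has a mean of 0 over its probes, with an SD of 1 on all arrays but replicates 2 and 3 of 128Q over 19Q, where it is 0.783 and 0.810. Across all features, which are not independent replicates, replicates 1 and 2 of 19Q over GFP only correlated with r = 0.744, while replicate 3 stood apart with r = 0.113 and 0.01 against them. Part of the first value comes from 243 unnamed low probes. These were picked for values under -4 on replicate 1 of 128Q over 19Q and replicates 1 and 2 of 19Q over GFP only. Leaving them out thus lowers the first value by construction. Without them the 3 values were 0.529, 0.21 and 0.043. Values that rest on replicate 3 are therefore given with and without it. Across the cest genes alone, r lay between 0.784 and 0.898 among the arrays of 128Q over 19Q. In 19Q over GFP only it was 0.532 for replicates 1 and 3. Replicate 2 had r = 0.206 against replicate 1 and 0.234 against replicate 3, so among the members it correlated least with the others. Of 36 marker genes of touch receptor neurons, neurons in general, intestine, muscle, hypodermis and pharynx, 0 are named in the probe annotation used here, so the labelled cell type and the share of other cells were not checked, and whether markers of other cells moved with the cest genes was not tested. By its own test the study lists some of these markers as lower in 128Q than in 19Q cells. Among them are mec-17 and mec-12 of touch receptor neurons, elt-2, act-5 and ifb-2 of intestine, and pha-4 and myo-2 of pharynx. What this means for the cest genes was not tested. In such pooled RNA, fewer cells of a type and less RNA per cell cannot be told apart.

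In 128Q cells relative to 19Q cells, the cest genes reached farther below 0 than above it. The 29 means ran from -1.67 for cest-17 to 0.37 for cest-9.1, with a median of -0.047, against a median of 0.045 over all 22033 features tested. The median of the members was -0.171, 0.007 and -0.012 without replicates 1, 2 and 3, so its sign turned only without replicate 2. Of these means 16 were below 0 and 13 above, where 45.6% and 54.3% of all features were. By limma with Benjamini-Hochberg adjustment over all features, cest-34 fell at the study's threshold of 0.01 and 0 members rose, where 1.17% of all features were lower and 1.63% higher. At an adjusted p under 0.05, 2 members were lower and 0 higher, against 5.58% and 4.92% of all features. At an unadjusted p under 0.05, 5 of the 29 were lower and 0 were higher, against 13.1% and 11.9% of all features. On all 3 arrays 13 members were below 0, which is 44.8% of them against 25.7% of all features, and 5 were above 0, which is 17.2% against 30.9%. The shares called at the adjusted thresholds rest on 1 or 2 genes and are not a result about the family, and no test was made of the family as a whole.

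**Figure D1:**
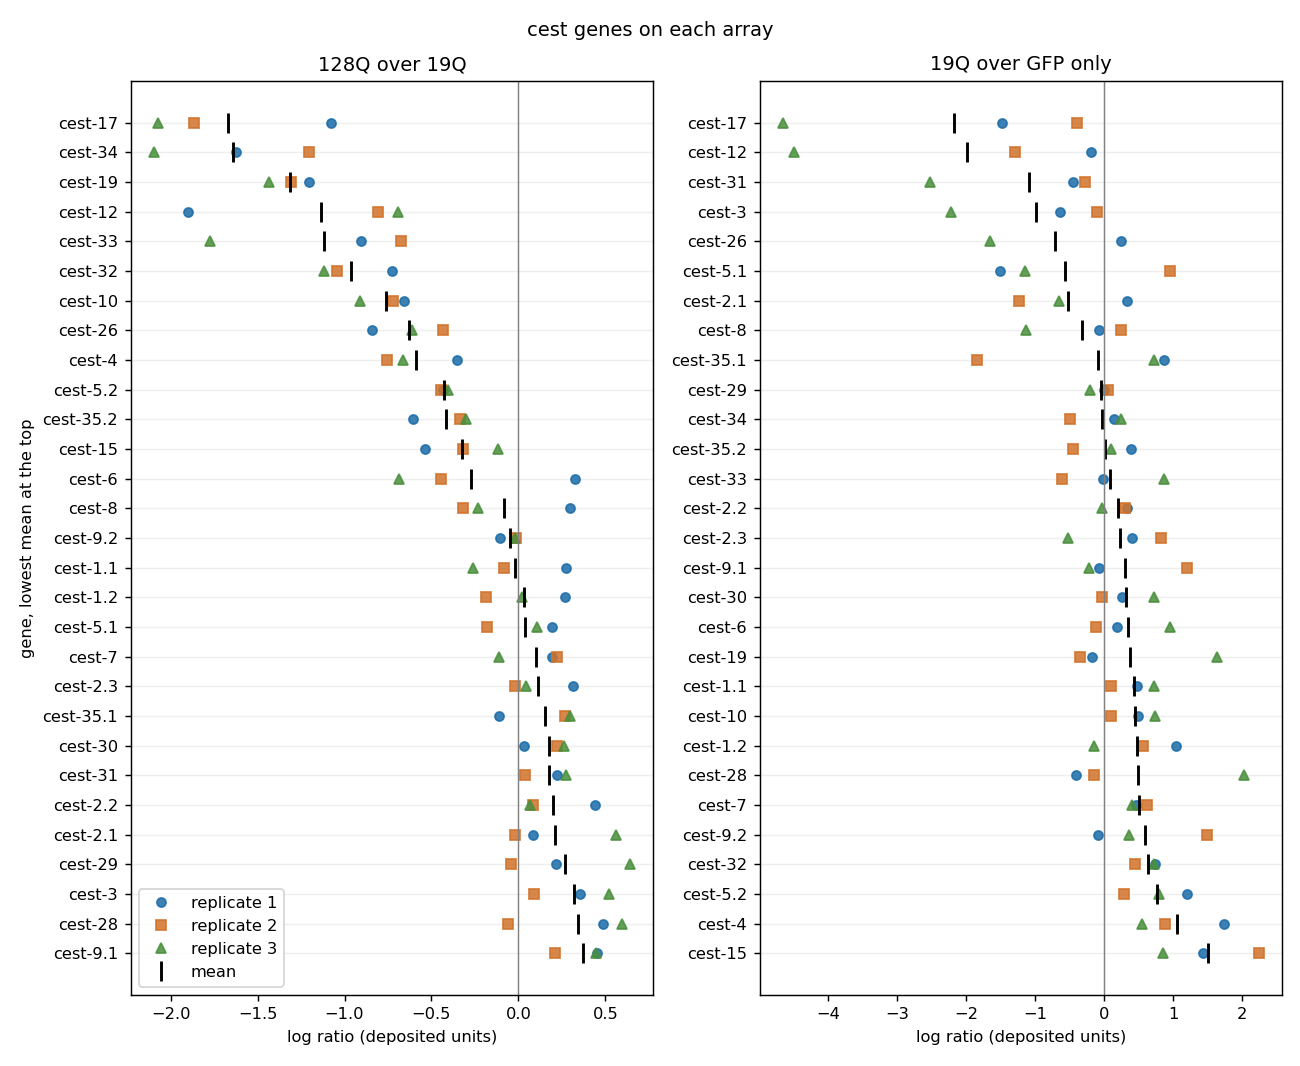
Log ratios in deposited units (x axis) of the 29 cest genes (y axis, lowest mean at the top) on the 3 arrays of 128Q over 19Q, left, and of 19Q over GFP only, right. Points are arrays and the black bar is their mean. On the left 12 genes have means of -0.32 or lower with every array below 0, and on the right replicate 3 lies far from the other arrays for several genes. The x axes of the panels differ in range.

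The gene that passed the test, cest-34, had log ratios of -1.63, -1.20 and -2.09 in replicates 1 to 3 of 128Q over 19Q. All 3 arrays were below -1, and the mean was -1.64 ± 0.45 (SD, n = 3, adjusted p = 0.00995 from limma), a value with 2.19% of features below it. The 95% interval of the mean ran from -2.22 to -1.06. The call sits at the threshold: with each array centred on its median the adjusted p from limma was 0.0101, and with each comparison fitted alone it was 0.0157. Leaving out replicate 1, 2 or 3 of 128Q over 19Q also ended it, where limma gave adjusted p values of 0.0716, 0.0402 and 0.0769, but in these fits 0 of all features were called, against 616 with all arrays, so the loss is not particular to cest-34. So did leaving out replicate 1 or 2 of the other comparison, with 0.0239 and 0.0140, where 195 and 347 features were called. In 19Q cells relative to GFP-only cells the same gene had 0.14, -0.49 and 0.24, on both sides of 0, with a mean of -0.04 ± 0.39 (SD, n = 3).

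Next in the order of p came cest-32, with log ratios of -0.73, -1.05 and -1.12 in 128Q over 19Q. Its mean of -0.96 ± 0.21 (SD, n = 3) had an adjusted p of 0.0207 from limma, which passes at 0.05 and not at 0.01. Values of cest-10 were -0.66, -0.72 and -0.91, so the arrays differed by little, and the mean was -0.76 ± 0.13 (SD, n = 3), with an adjusted p of 0.0524 in limma. The 3 arrays of cest-19 were also close together, with -1.21, -1.31 and -1.43 and a mean of -1.32 ± 0.11 (SD, n = 3), for which limma gave an adjusted p of 0.0756. Those of cest-33 were wider apart, with -0.91, -0.68 and -1.77 and a mean of -1.12 ± 0.58 (SD, n = 3), for which limma gave an adjusted p of 0.0823. By its own test the study lists both cest-34 and cest-19, under their sequence names, among the genes deregulated in 128Q cells.

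At the bottom of the order by mean stood cest-17, with log ratios of -1.08, -1.87 and -2.07 in 128Q over 19Q. Its mean of -1.67 ± 0.53 (SD, n = 3) had an adjusted p of 0.206 in limma. In that fit both comparisons share 1 estimate of the spread, and the SD of cest-17 over the arrays of 19Q over GFP only was 2.21. Fitted on the 3 arrays of 128Q over 19Q alone, cest-17 had an adjusted p of 0.0180 and cest-19 one of 0.0112 from limma. Without replicate 3 of 19Q over GFP only, cest-19 passed the test (adjusted p = 0.00377 from limma) and cest-17 had 0.0126. Members at an unadjusted p under 0.05 numbered 5 in the joint fit, 9 without that replicate and 12 with the comparison fitted alone. Of these 12, 11 were lower and cest-9.1 was higher. For all features the split by direction in that fit is not given here. That of the members is therefore not read as a result about the family. The share of members was 17.2%, 31% and 41.4% in the fits with 5, 9 and 12, against 25%, 33.3% and 33.3% of all features. Both shares were higher than in the joint fit, but only that of the members was higher fitted alone than without that replicate. Whether the members differ from the whole table in this was not tested.

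A further group lay below 0 on every array with smaller or less certain values. In 128Q over 19Q cest-12 had -1.90, -0.81 and -0.70, with replicate 1 far below the others and a mean of -1.13 ± 0.66 (SD, n = 3). The mean of cest-26 was -0.63 ± 0.20 and that of cest-4, which takes part in glucoside assembly, was -0.59 ± 0.21 (SD, n = 3 each). For cest-5.2 the arrays gave -0.43, -0.45 and -0.41, the smallest SD of any member at 0.020, and the mean was -0.43. The means of cest-35.2 and cest-15 were -0.41 and -0.32. None of these passed the test, and their adjusted p values from limma lay between 0.211 for cest-4 and 0.565 for cest-15.

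The genes that attach side groups to ascarosides had log ratios near 0 in 128Q over 19Q. The means were -0.02 ± 0.27 for cest-1.1, 0.20 ± 0.21 for cest-2.2, 0.32 ± 0.22 for cest-3, -0.09 ± 0.33 for cest-8 and -0.05 ± 0.05 for cest-9.2 (SD, n = 3 each). Their 95% intervals from limma all spanned 0, from -0.78 at the lowest bound for cest-8 to 1.22 at the highest for cest-3, so changes of that size could not be told from none. The highest mean of all members, 0.37 ± 0.14 (SD, n = 3, adjusted p = 0.524 from limma), was that of cest-9.1, with 0.45, 0.21 and 0.45 on the arrays. This value lay above 78% of all features, so the upper end of the family was well inside the bulk of the table. Of the rest, cest-28, cest-29, cest-2.1, cest-31, cest-30, cest-35.1, cest-2.3, cest-7, cest-5.1 and cest-1.2 had means between 0.03 and 0.34, and cest-6 had -0.27 with 0.32 on replicate 1 and -0.45 and -0.69 on the others.

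**Figure D2:**
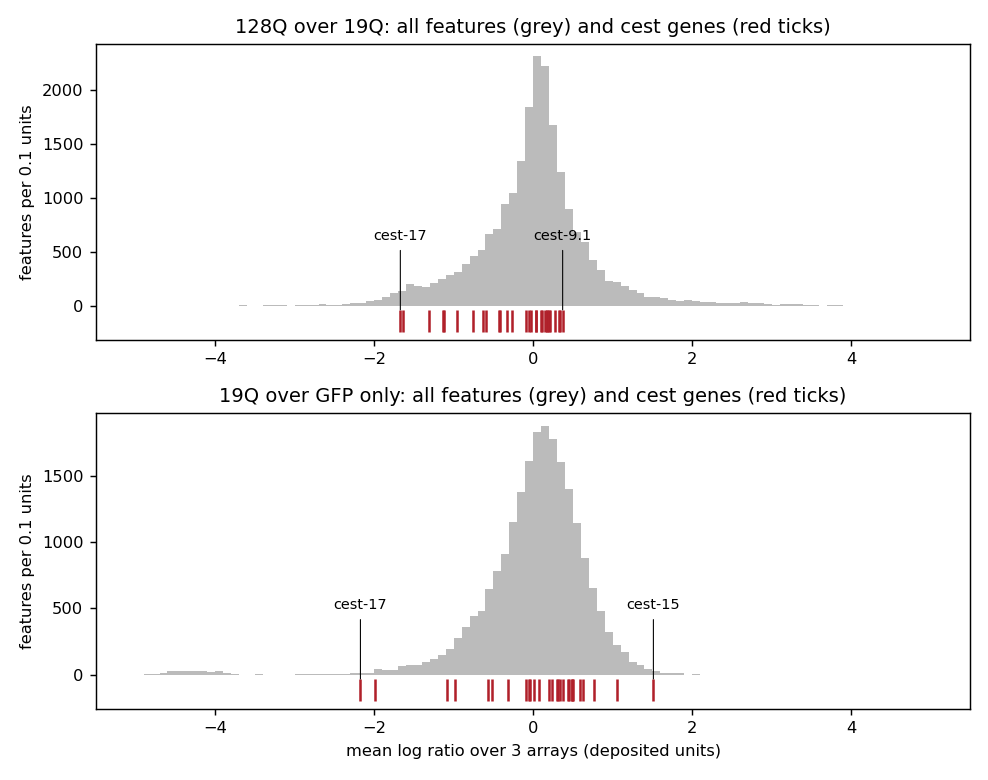
Histogram of the mean log ratio (x axis, deposited units) of all features tested, 22033 in 128Q over 19Q (top) and 21897 in 19Q over GFP only (bottom), with the cest genes as red ticks. In 128Q over 19Q the ticks run from -1.67 (cest-17) to 0.37 (cest-9.1), and in 19Q over GFP only from -2.17 (cest-17) to 1.51 (cest-15). Of the 239 features under -3.5 in the lower panel, 235 are unnamed probes that mostly recur at even spacing in the table.

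In 19Q cells relative to GFP-only cells, a comparison of the normal Huntingtin fragment with GFP alone, 0 members passed the test by limma. The lowest adjusted p of a member was 0.127, and at 0.01 this comparison called 0% of all features. At an unadjusted p under 0.05, 5 of the 28 members tested were higher and 4 were lower, against 14% and 8.03% of all features. On all 3 arrays 7 were above 0 and 4 below, against 27.3% and 13.3% of all features, and 18 means were above 0 and 10 below, against 57.7% and 42.3%. The test rebuilt after VarMixt, the tool the study names, also called 0 members and had 7 at that unadjusted level. That is 25% of the members tested, against 22.5% of all features. In these fits both comparisons share 1 estimate of the spread. With 19Q over GFP only fitted alone, limma had 4 members at that level, 14.3% against 11.6% of all features. The lowest adjusted p of a member in that limma fit was 0.425. The means had a median of 0.27, against 0.093 over all features, and 0.061 without replicate 3. The SD between arrays had a median over members of 0.692, against 0.209 over the 29 members in 128Q over 19Q. Over all features too the median SD was larger, at 0.485 in 19Q over GFP only and 0.287 in 128Q over 19Q. One member, cest-26, lacked a value on replicate 2 and was not tested, with 0.24 and -1.66 on replicates 1 and 3.

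The highest member in 19Q over GFP only was the pseudogene cest-15, with log ratios of 1.44, 2.24 and 0.86. All 3 arrays were well above 0, and the mean of 1.51 ± 0.70 (SD, n = 3, adjusted p = 0.127 from limma) was exceeded by 65 of the other features tested. Without replicate 3 it was 1.84 with an adjusted p of 0.0337 from limma. The gene cest-4 followed with 1.73, 0.89 and 0.56 and a mean of 1.06 ± 0.61 (SD, n = 3, adjusted p = 0.136 from limma). For cest-5.2 the arrays gave 1.20, 0.29 and 0.80, with a mean of 0.76 ± 0.46 (SD, n = 3, adjusted p = 0.149 from limma). Values of cest-32 were close together, 0.74, 0.44 and 0.72, with a mean of 0.63 ± 0.16 (SD, n = 3, adjusted p = 0.154 from limma). Above 0 on all arrays were also cest-7, with 0.47, 0.62 and 0.41, cest-10, with 0.50, 0.11 and 0.73, and cest-1.1, with 0.48, 0.10 and 0.72.

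The lowest member was cest-17, with -1.48, -0.39 and -4.65 in 19Q over GFP only. Replicate 3 was far below the others, and the mean of -2.17 ± 2.21 (SD, n = 3, adjusted p = 0.177 from limma) became -0.94 without it. The same array decided cest-12, which had -0.19, -1.29 and -4.49, a mean of -1.99 ± 2.24 (SD, n = 3), and -0.74 without it. In cest-31 replicate 3 was -2.52 against -0.45 and -0.28, and in cest-3 it was -2.22 against -0.64 and -0.10. Their means of -1.08 and -0.99 became -0.36 and -0.37 without that array. In the other direction, cest-28 had 2.02 on replicate 3 against -0.41 and -0.15, and cest-19 had 1.64 against -0.17 and -0.36. Both means, 0.49 and 0.37, turned to -0.28 and -0.26 without it. Replicate 3 was the array farthest from the median of the 3 for 14 of the 28 members, replicate 2 for 12 and replicate 1 for 2. For cest-5.1 it was replicate 2, at 0.95 against -1.51 and -1.15, and the mean of -0.57 became -1.33 without that array.

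Both comparisons use 19Q cells, as the divisor in the first and the dividend in the second. Whether the same RNA extracts were used in both is not given in the labels, and the part of the 19Q cells in values of opposite sign was not tested. Side by side, cest-4 had -0.59 in 128Q over 19Q and 1.06 in 19Q over GFP only. The corresponding means were -0.96 and 0.63 for cest-32, -0.76 and 0.45 for cest-10, -0.43 and 0.76 for cest-5.2, and -0.32 and 1.51 for cest-15. For cest-17 they were -1.67 and -2.17, and for cest-12 they were -1.13 and -1.99. The means of cest-34 were -1.64 and -0.04, those of cest-33 -1.12 and 0.08, and those of cest-19 -1.32 and 0.37. Without replicate 3 of 19Q over GFP only, the second mean was -0.17 for cest-34, -0.31 for cest-33 and -0.26 for cest-19. It was then -0.94 for cest-17 and -0.74 for cest-12. For cest-4, cest-32, cest-10, cest-5.2 and cest-15 it stayed above 0, at 1.31, 0.59, 0.30, 0.74 and 1.84.

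For a single member the spread between probes of the same gene can be read. Whether its probes share a sequence was not checked, so this spread need not hold for members with 1 probe. While 28 members have 1 probe, cest-35.1 has 10, as do 22 other genes of the table. On the arrays of 128Q over 19Q its probes averaged -0.11, 0.27 and 0.30, with SDs over the 10 probes of 0.173, 0.0764 and 0.0530. In 19Q over GFP only the probes of replicates 1 and 2 averaged 0.86 and -1.84, with SDs of 0.161 and 0.147, so every probe was at least 0.71 on the first and at most -1.63 on the second. These arrays thus gave opposite signs for the gene. The spread of probes on 1 array is technical and is no measure of the spread between samples. On replicate 3 the mean was 0.72, but the probes ran from -0.26 to 2.47 with an SD of 0.768, the largest of the 23 genes with 10 probes on that array. The median SD of those genes was 0.418 on replicate 3, against 0.0632 to 0.153 on the other 5 arrays. Repeated probes thus spread more on replicate 3 than on the other arrays in the median over these genes. The mean of cest-35.1 in 19Q over GFP only, -0.09 ± 1.52 (SD, n = 3), averages arrays of opposite sign.

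**Figure D3:**
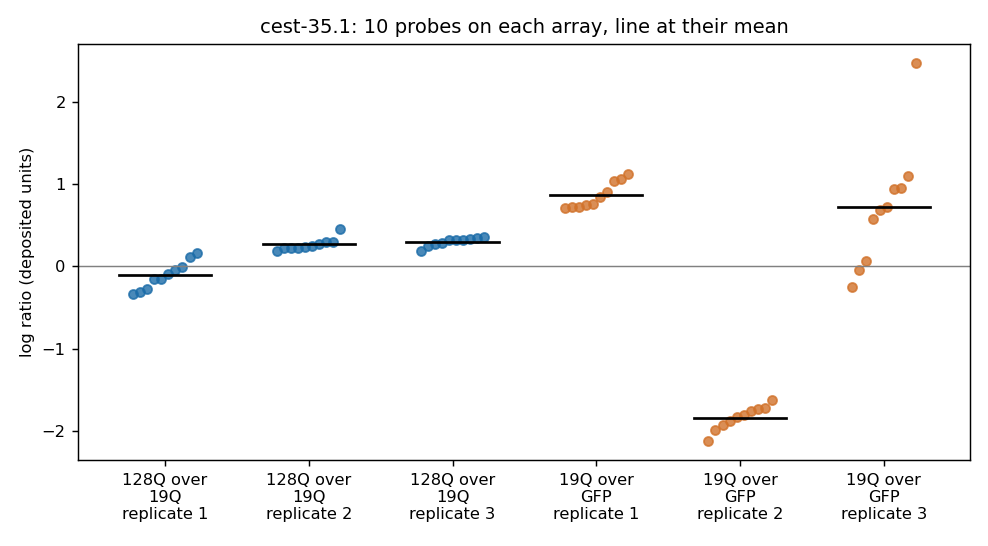
Log ratios in deposited units (y axis) of the 10 probes of cest-35.1 on each of the 6 arrays (x axis), sorted within an array, with a line at their mean. The probes of replicates 1 and 2 of 19Q over GFP only lie tightly around 0.86 and -1.84, and those of replicate 3 spread from -0.26 to 2.47.

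Many cest genes lie next to each other in the genome. A run was taken, after the values had been seen, as members with at most 3 other protein-coding genes or pseudogenes between them in the WBcel235 annotation. The run of cest-1.2, cest-1.1, cest-2.1, cest-2.2 and cest-2.3 on chromosome V had means between -0.02 and 0.21 in 128Q over 19Q. That of cest-8, cest-9.2, cest-9.1, cest-7 and cest-3 on chromosome X had means between -0.09 and 0.37. In limma an unadjusted p under 0.05 was found for 0 of these 10 genes and for 5 of the other 19, against 25% of all features, and for 2 of the 10 and 7 of the other 18 tested in 19Q over GFP only, against 22% of all features. Neither difference was tested. In the run of cest-28, cest-31 and cest-34 the third gene stood apart, with means of 0.34 and 0.18 for cest-28 and cest-31 and -1.64 for cest-34. Along cest-32, cest-35.2 and cest-35.1 the means were -0.96, -0.41 and 0.15, and for the pair cest-5.2 and cest-5.1 they were -0.43 and 0.04. Of the 11 genes outside any such run, cest-17, cest-19, cest-12, cest-33, cest-10, cest-26 and cest-4 had means of -0.59 or lower in 128Q over 19Q. The means of the other 4 were -0.32 for cest-15, -0.27 for cest-6, 0.17 for cest-30 and 0.27 for cest-29. Close copies can share signal on a probe, and since the probe sequences were not used here, values of genes with paired symbols such as cest-9.1 and cest-9.2 are uncertain in that respect.

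**Figure D4:**
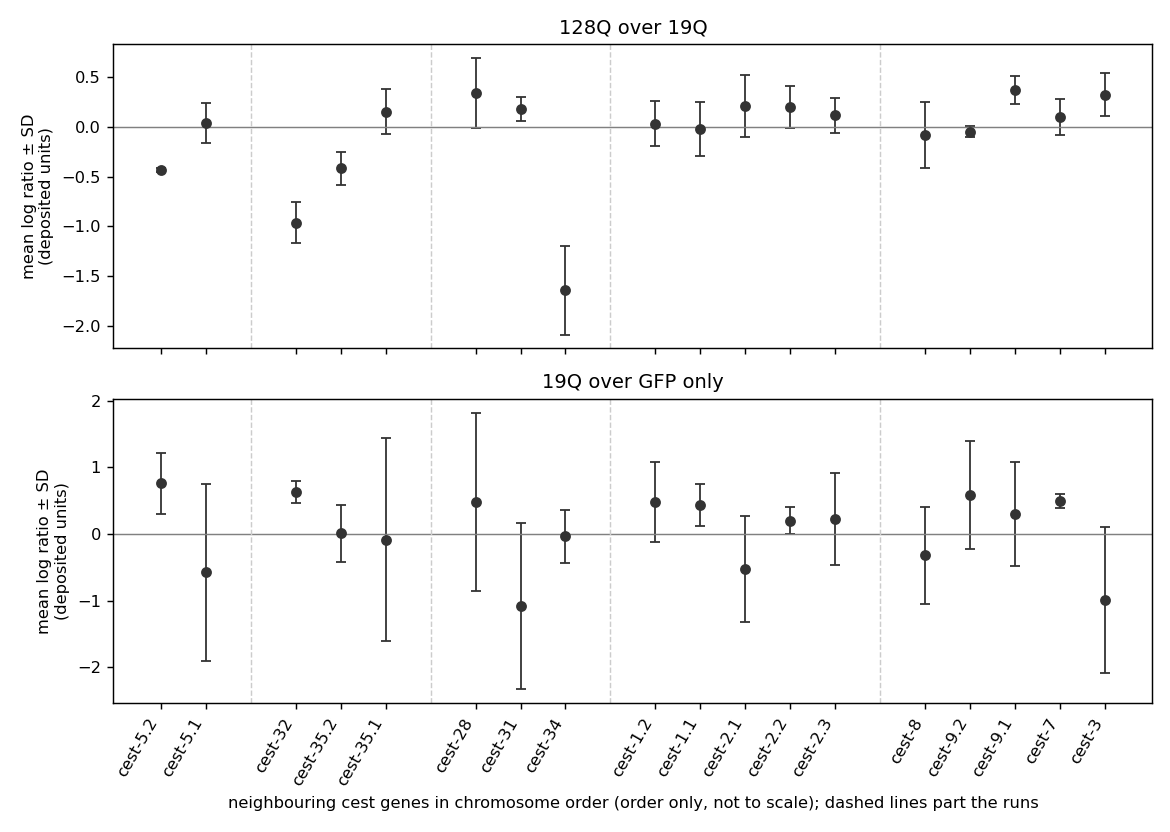
Mean log ratio in deposited units (y axis; bars are ± SD, n = 3) of the 18 cest genes that lie in a run of neighbours, in chromosome order (x axis, order only), for 128Q over 19Q (top) and 19Q over GFP only (bottom). In 128Q over 19Q the runs of 5 genes stay between -0.09 and 0.37, while cest-34 at -1.64 stands apart from its neighbours cest-28 and cest-31.

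Few related enzymes are named in the probe annotation used here, and the others were not analysed. Of 7 other genes of the carboxylesterase fold, 24 lipases, 80 cytochromes P450 and 10 genes of peroxisomal ascaroside synthesis, 0 are named in it. Of 111 UDP-glucuronosyltransferases and glutathione S-transferases, which couple sugars or glutathione to small molecules, ugt-66 and ugt-67 are named, and they do not stand for the rest of that list. In 128Q over 19Q ugt-66 had 1.51, 2.68 and 1.78, all well above 0, with a mean of 1.99 ± 0.61 (SD, n = 3) and an adjusted p of 0.0614 in limma. Values of ugt-67 were -0.89, -0.22 and -0.91, with a mean of -0.67 ± 0.40 (SD, n = 3), for which limma gave an adjusted p of 0.109. In 19Q over GFP only their means were -0.46 ± 1.53 and -0.24 ± 0.28 (SD, n = 3 each), and neither passed the test.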

How the data were processed

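RNA of sorted touch receptor cells was amplified linearly, labelled with Cy5 and Cy3 and hybridised to 2-colour Agilent arrays, which the study read with a GenePix scanner; its methods state that each of 3 independent experiments had a dye swap. The deposited values are scores, that is log ratios of Cy5 over Cy3 that the authors centred near 0. The sources used here do not give the log base, the background correction, the normalization or any merging of dye swaps. Direction follows the dyes in the labels. The labels call the replicates biological and the methods call the experiments independent, but neither mentions separate cultures, so p-values measure the spread between these arrays.

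Of 22562 probes, 7718 carry 1 symbol in the platform annotation, 0 carry several and 14844 none, and 7691 of the named ones matched the WBcel235 gene table, which gave current symbols. Probes of a gene were averaged. Both comparisons were fitted together over the whole table with limma 3.58.1 in R 4.3.3, each mean against 0, two-sided, where all 3 arrays had a value, with Benjamini-Hochberg adjustment over all features and the study's threshold of 0.01. Precision is limited by having 3 arrays per comparison, and how far probes stood above background is unknown. The fit was also run on simulated data, for which no result is given here. That run cannot show that 1 shared estimate of the spread suits both comparisons, whose median SDs between arrays differed over the members. Alternatives were a test rebuilt after VarMixt (the tool of the study, itself not used here), robust moderation, separate fits, centring, scaling, single probes, a looser filter and threshold, a replicate block and each array left out. Every member is named, and those called, the 5 with the lowest p per comparison and the highest and lowest means are given in full. The members and lists were chosen with earlier results of these data known. The remarks on neighbours, cest-35.1 and single arrays were added after the values were seen. No sequences of the members were used here.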

Additional observations from a re-analysis of the deposited data

How the results depend on the processing

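For 128Q versus 19Q, 1 cest gene was called, cest-34. The count was 0 with each comparison fitted alone, 0 with arrays centred on the median, 0 with single probes, and 2 at an adjusted p under 0.05, where a looser threshold adds cest-32 by construction. Leaving out each array gave 0 to 2, with 2, cest-34 and cest-19, without replicate 3 of 19Q over GFP only and 0 without any other. The count over all features, 616 with every array, moved as well: it was 0 whenever a 128Q array was left out, and 195, 347 or 1472 when it was replicate 1, 2 or 3 from the other comparison. The call was kept by the test rebuilt after VarMixt, robust moderation, centring with scaling and genes with at least 2 of 3 values. It was also kept without the 243 low probes and with named genes alone, settings chosen after seeing the data. The cause of the other changes was not tested. Centring on the median turned the split of means above and below 0 to 11 and 18, against 13 and 16, and that of 19Q over GFP only to 16 and 12, against 18 and 10. For 19Q versus GFP only the count was 0 under every setting run.

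Whether an equal replicate number pairs arrays of the 2 comparisons was not settled. For replicates 1, 2 and 3 the deviations of such arrays had r = 0.43, -0.13 and 0.335. Without the low probes r was -0.036, -0.00088 and 0.0059. Those probes were picked by their values on some of these arrays, so leaving them out can change r by construction. Neither set of values decides the question. With the replicate block as a random effect 1 cest gene was called, cest-34, and with the block as a fixed effect, added after seeing the data, 0 were called, and all features called fell to 204.

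Signs turned only for values near 0 or set by 1 array. In 128Q over 19Q, cest-5.1 was -0.00067 and cest-1.2 -0.0053 with centring, and -0.021 and -0.025 with centring and scaling. In 19Q over GFP only, cest-35.2 was -0.089 and -0.077 and cest-33 -0.026 and -0.11 under the same settings. When each array was left out, the ranges in 128Q over 19Q were -0.17 to 0.097 for cest-1.1, -0.083 to 0.14 for cest-1.2, -0.039 to 0.15 for cest-5.1 and -0.27 to 0.032 for cest-8. In 19Q over GFP only they were -0.26 to 0.74 for cest-19, -0.063 to 0.61 for cest-2.3, -0.28 to 0.93 for cest-28, -0.10 to 0.030 for cest-29, -0.31 to 0.42 for cest-33, -0.17 to 0.19 for cest-34, -0.56 to 0.79 for cest-35.1, -0.17 to 0.25 for cest-35.2, -0.60 to 0.090 for cest-8 and -0.15 to 0.57 for cest-9.1.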
